A study of Homo sapiens with 60 samples.

Results

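RAD21 and PDS5A peaks were compared between osimertinib-treated METTL7A knockout PC9 cells that carried METTL7A again (Rescue) and osimertinib-treated knockout cells without it (KO). PC9 is a human lung adenocarcinoma line with an activating EGFR mutation, and osimertinib is an EGFR inhibitor. Per the labels, KO cells lack METTL7A, Rescue cells are KO cells that overexpress METTL7A with MYC and FLAG tags, and both were grown under osimertinib raised from 100 nM over 6 to 8 weeks. Both groups therefore share the knockout and the treatment, and the tagged protein in Rescue cells is overexpressed. The labels do not say whether the KO or Rescue cells were 1 clone. Binding was read by CUT&RUN, in which an antibody directs a nuclease to chromatin and the released fragments are sequenced. Each antibody had 2 libraries per genotype, 8 libraries in all, and the authors deposited 1 joined peak list per antibody and genotype. A peak was kept when it lay on chromosomes 1 to 22 and its global irreproducible discovery rate (IDR, a measure of how well its rank agrees between the replicates) was 0.05 or less. This gave 30421 peaks in the 4 lists, of 149865 peaks chosen in the same way in 24 lists of the series. Every deposited peak, whatever its IDR, was kept as a second set of 87424 peaks in the 4 lists.

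Cohesin is the ring-shaped complex that holds sister chromatids together and extrudes chromatin loops. RAD21 is the subunit that closes the ring. PDS5A binds RAD21 and takes part both in the release of cohesin from chromatin, together with WAPL, and in keeping it bound once it is acetylated. H3K27Ac marks active promoters and enhancers, and IgG is the nonspecific antibody that shows background.

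The files hold no read totals, so depth was unknown; the labels planned 20 M paired-end reads per library. No file analysed here measures METTL7A itself, so the genotype labels could not be checked in these data. Replicates 1 and 2 are named here by their order in the deposited lists, which is not tied to the labelled libraries. The replicates of the 2 genotypes were uneven in opposite directions. In the Rescue lists the −log10 p of replicate 1 exceeded that of replicate 2 at 95% of the RAD21 peaks (medians 33.5 and 19.3) and at 99.5% of the PDS5A peaks (medians 39.7 and 17.5). In the KO lists replicate 1 was the higher at 17.8% of the RAD21 peaks (medians 17.1 and 23.7) and at 11.3% of the PDS5A peaks (medians 17 and 28.1). Spearman's rho between the replicates, across all deposited peaks of a list, was 0.709 for RAD21 and 0.703 for PDS5A in Rescue cells, and 0.570 and 0.519 in KO cells. Peaks are not independent replicates, so these are descriptions. The treated IgG lists ran the other way from the cohesin lists in length, with 884 deposited peaks in Rescue and 2668 in KO cells. Their part in the results below was not tested. Because each group gave 1 joined list, no comparison here has a p-value; shares carry Wilson 95% intervals, which cover counting error only.

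Both cohesin proteins had far more peaks in Rescue than in KO cells, and most KO peaks overlapped a Rescue peak. RAD21 had 10864 peaks in Rescue and 4293 in KO cells, a ratio of 2.53, and covered 13.1 and 5.24 Mb. PDS5A had 11243 and 4021 peaks, a ratio of 2.80, and covered 14.7 and 5.00 Mb. The ratio for H3K27Ac was 1.55 (12991 and 8383 peaks). Over every deposited peak the ratios were smaller, at 1.49 for RAD21 (25665 and 17279 peaks), 1.48 for PDS5A (26520 and 17960) and 1.15 for H3K27Ac. The ratios differed between the replicates. Counted at a −log10 p of 10 in replicate 1 alone, RAD21 had 19536 Rescue and 7267 KO peaks, and PDS5A 22248 and 7789. Counted in replicate 2 alone, RAD21 had 13205 and 9873 peaks, a ratio of 1.34, and PDS5A 12978 and 11787, a ratio of 1.10.

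Of the Rescue RAD21 peaks, 7045 overlapped no KO peak by 1 bp or more, 64.8% of the list (interval 63.9 to 65.7). These are called Rescue-only, and the other 3819 shared. Of the KO RAD21 peaks, 459, or 10.7% (9.80 to 11.7), were KO-only. For PDS5A 7758 Rescue peaks were Rescue-only, 69% of the list (68.1 to 69.9), and 523 KO peaks, or 13%, were KO-only. Most Rescue-only peaks nevertheless lay on a peak that was deposited for KO cells and missed the IDR limit. This held for 5506 of the 7045 RAD21 peaks and 5756 of the 7758 PDS5A peaks. The deposited KO list of the same antibody held no peak at the remaining 1539 RAD21 peaks, 14.2% of the Rescue list, and at 2002 PDS5A peaks, 17.8%. In the other direction 28 KO RAD21 peaks (0.652%) and 14 KO PDS5A peaks (0.348%) had no deposited Rescue peak.

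**Figure D1:**
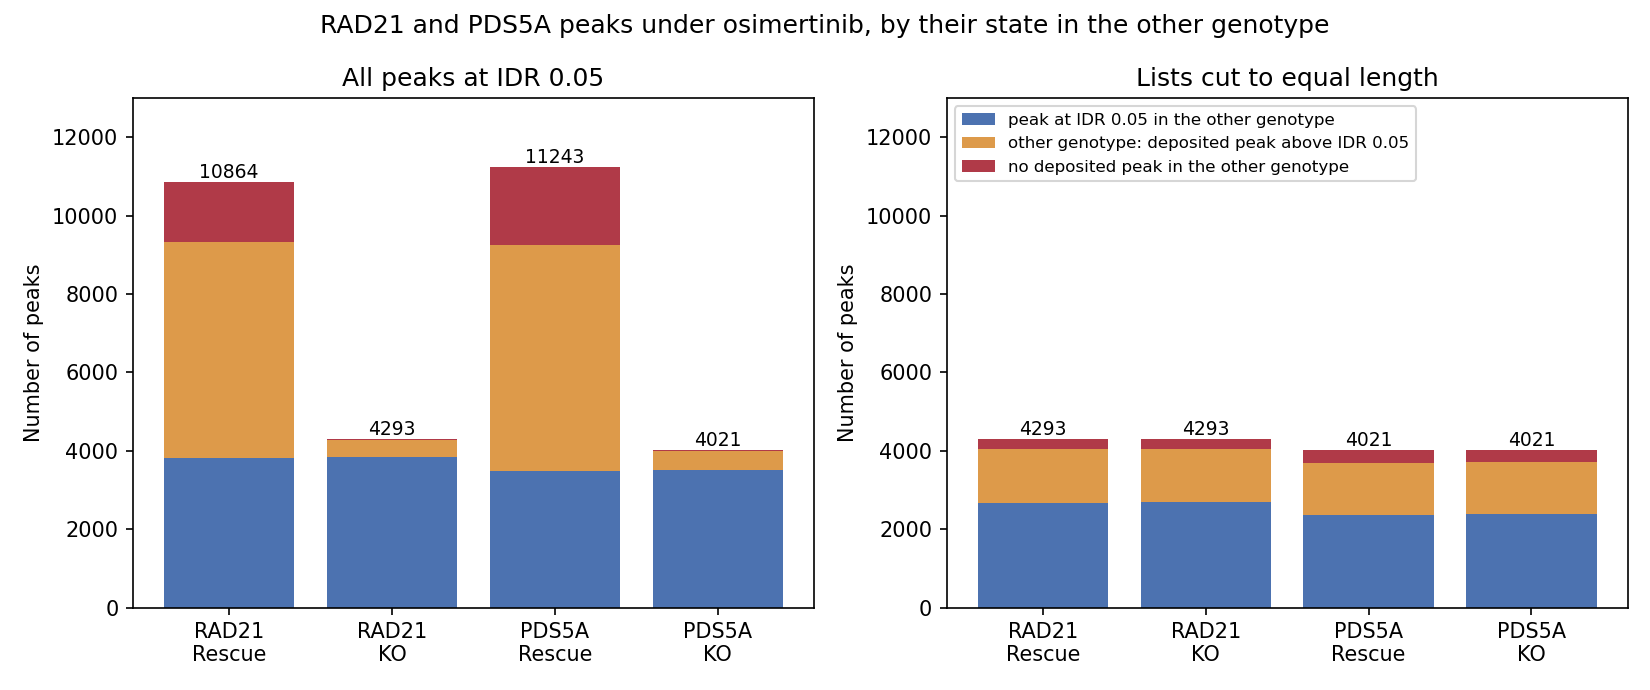
Number of RAD21 and PDS5A peaks in treated Rescue and KO cells, stacked by what the list of the other genotype holds at the same place; the right panel cuts both lists to the same number of the strongest peaks, and the deposited lists to the same length too. The 10864 and 11243 Rescue peaks stand far above the 4293 and 4021 KO peaks on the left, whereas on the right the bars of the 2 genotypes are divided almost alike.

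The direction of these differences could not be told apart from the lengths of the lists. When each list was cut to its strongest peaks, 4293 for RAD21 and 4021 for PDS5A, 37.6% of Rescue RAD21 peaks were absent from KO and 37.3% of KO RAD21 peaks were absent from Rescue. The PDS5A shares were 41.2% and 40.9%. With the deposited lists cut to equal length as well, 245 Rescue and 239 KO RAD21 peaks had no deposited peak in the other genotype, and 330 Rescue and 306 KO PDS5A peaks. Lists of equal length give nearly equal shares by construction. They compare which positions rank highly and not how much was bound.

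**Figure D2:**
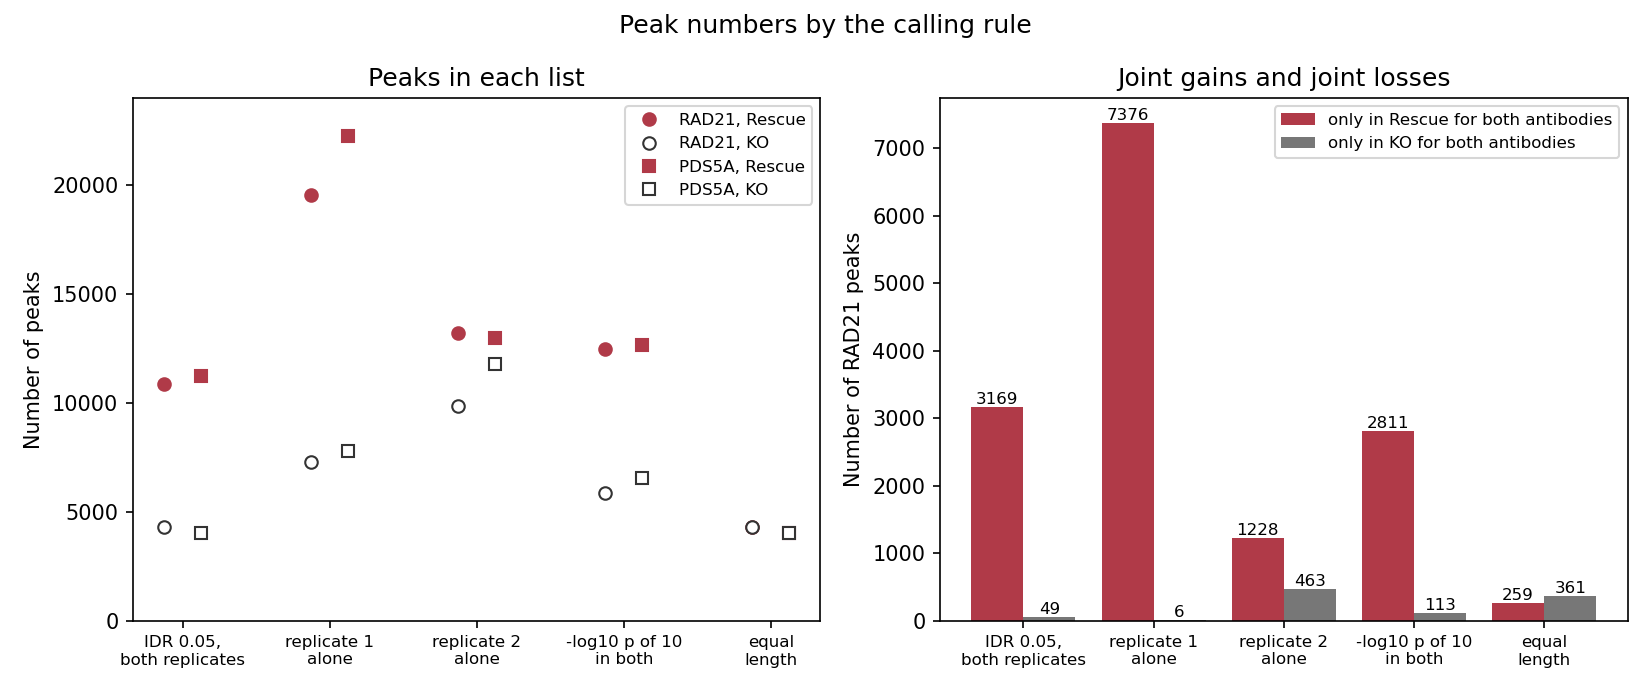
Peaks per list (left) and RAD21 peaks that were Rescue-only or KO-only for both antibodies (right) under 5 calling rules. Rescue exceeds KO in every uncut list, least in replicate 2 alone, and at equal length 259 joint gains stand beside 361 joint losses.

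Rescue-only peaks were mostly the weaker ones of the Rescue list. Peaks were ranked within the list by the lower of their 2 replicate −log10 p values, the authors' own values. The list was divided into 3 equal groups of peaks by strength. Of the weakest Rescue RAD21 peaks 89.4% had no KO peak at the limit, of the middle group 72.2% and of the strongest group 32.9%. The PDS5A shares were 91.2%, 76.4% and 39.4%. No deposited KO peak lay under 24.3%, 13.2% and 4.97% of the RAD21 peaks in the same order, and under 27.1%, 18.7% and 7.58% of the PDS5A peaks. At the 5506 Rescue-only RAD21 peaks with a KO peak over the limit, the median lower −log10 p in the KO list was 7.93, and at the shared peaks 16.6. For PDS5A these medians were 8.18 and 16.9. The IDR of the KO peak set these classes, so the order of the medians follows from that choice. Uneven KO replicates over the limit follow from it in part as well. Often 1 KO replicate was high and the other low. At 3047 of the 5506 RAD21 positions (55.3%) 1 KO replicate reached a −log10 p of 10 and the other did not, at 1125 both did and at 1334 neither did. For PDS5A the counts were 3356, 1646 and 754 of 5756.

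**Figure D3:**
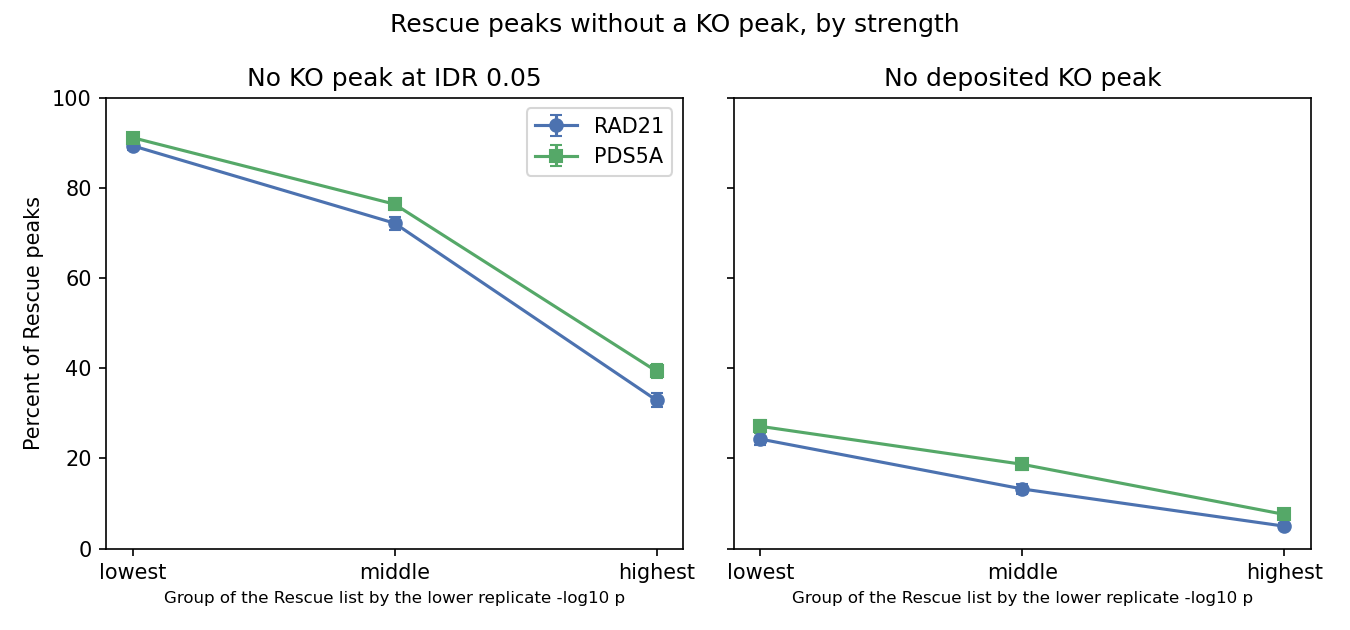
Share of Rescue peaks with no KO peak at an IDR of 0.05 (left) and with no deposited KO peak (right), in 3 equal groups of the Rescue list by the lower replicate −log10 p; bars are Wilson 95% intervals. Both shares are lower in each stronger group, from 89.4% to 32.9% for RAD21 on the left.

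The strongest Rescue-only positions were read in 2 sets, each chosen by rule. The first set, the strongest of all Rescue-only peaks, had strong KO signal in 1 replicate. The Rescue RAD21 peak at chr3:135968904-135969832 (GRCh37, as are all positions here) had a −log10 p of 122.7 and 159.2 in the 2 replicates, and the KO peak there 5.13 and 59.9. At chr16:54317600-54321966 the Rescue values were 209.9 and 133.3 and the KO values 5.10 and 65.0. KO replicate 2 was the higher at these positions, but at chr3:156391523-156394169 the KO values were 58.8 and 14.0 and at chr12:64237149-64240479 46.7 and 8.63, with replicate 1 the higher. Of the 5 strongest Rescue-only RAD21 peaks 3 lay on an IgG peak. The second set was limited to peaks with no deposited KO peak. By this choice its members could not outrank those of the first set. Its strongest RAD21 peak, at chr7:61968826-61969189, had 97.2 and 108.9 in Rescue and no PDS5A peak in either genotype. Of the 5 strongest RAD21 peaks of this set it was the 1 that lay on an IgG peak. RAD21 at chr1:23188331-23188971 had 81.4 and 83.3 in Rescue, with no RAD21 or PDS5A peak deposited for treated KO cells, though RAD21 was called in untreated KO cells. PDS5A at chr19:17980861-17981943 had 119.6 and 87.7 in Rescue and none in KO. At chr1:220454138-220454990 PDS5A had 146.3 and 83.2, again with none in KO. All 5 of the strongest PDS5A peaks of this set were also called in treated wild-type cells, and none of the 5 lay on an H3K27Ac or IgG peak. No annotation of GRCh37 was used here, so no gene is named from a position.

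KO-only peaks were few, and at most of them the replicates of a deposited Rescue peak stood on either side of a −log10 p of 10. Of 459 KO-only RAD21 peaks 431 had such a Rescue peak, and at 355 of these (82.4%) 1 Rescue replicate reached a −log10 p of 10 and the other did not. For PDS5A this held at 432 of 509 (84.9%). Both Rescue replicates reached 10 at 64 RAD21 and 76 PDS5A positions. These Rescue peaks missed the IDR limit, so uneven replicates are in part a result of the choice. At chr2:222435331-222439164 the KO RAD21 values were 79.9 and 115.7, and the Rescue values 260.0 and 7.28. At chr1:113614996-113616540 the KO PDS5A values were 79.9 and 112.5, and the Rescue values 271.1 and 3.63. In each of the 5 strongest KO-only peaks of either antibody, Rescue replicate 1 had over 100 and replicate 2 under 10, so these positions were not without cohesin signal in Rescue cells. The KO-only peaks with no deposited Rescue peak are a part of all KO-only peaks, so by choice they cannot outrank the strongest. The strongest RAD21 peak of this part, at chr19:54992379-54993045, had 25 and 41.8 in KO cells, and PDS5A was called there in both genotypes.

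A shared position, chr16:50839963-50840665, held the highest PDS5A value of all 4 PDS5A libraries. RAD21 there had 467.1 and 292.1 in Rescue and 195.4 and 285.9 in KO cells, and PDS5A 613.8 and 455.2 in Rescue and 156.0 and 308.2 in KO cells. No IgG peak lay there, and both proteins were called in treated wild-type and untreated Rescue cells. At the IDR limit itself, the last RAD21 peak kept in Rescue had replicate values of 15.8 and 10.6 and the first left out 31.4 and 9.63. The KO values were 10.5 and 19.9 inside and 11.6 and 15.1 outside.

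Many Rescue-only RAD21 peaks lay on a Rescue-only PDS5A peak, in lists of which most PDS5A peaks were Rescue-only. Of 7045 Rescue-only RAD21 peaks, 3169 (45.0%, 43.8 to 46.1) overlapped a Rescue-only PDS5A peak, 949 (13.5%) a shared PDS5A peak, and 150 (2.13%) a PDS5A peak only of KO cells. At 2777 (39.4%) no PDS5A peak was called in either genotype. Of the 7758 Rescue-only PDS5A peaks 3152 (40.6%) lay on a Rescue-only RAD21 peak. Shared peaks often did as well: 33.4% (31.9 to 34.9) of shared RAD21 peaks lay on a Rescue-only PDS5A peak, and 27% (25.6 to 28.5) of shared PDS5A peaks on a Rescue-only RAD21 peak. In the other direction 49 of 459 KO-only RAD21 peaks (10.7%) lay on a KO-only PDS5A peak, and 5.84% of the shared KO RAD21 peaks did. This contrast, like that of the single antibodies, moved with list length and replicate. At equal length there were 259 joint gains and 361 joint losses. In replicate 1 alone there were 7376 joint gains and 6 joint losses, and in replicate 2 alone 1228 and 463.

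Merging the overlapping peaks of the 4 lists gave 14999 loci. Both proteins were Rescue-only at 3141 loci (20.9% of all loci) and KO-only at 48 (0.32%). RAD21 alone was gained, with no PDS5A peak, at 2777 loci, and PDS5A alone, with no RAD21 peak, at 3201. Both were shared at 1949 loci. PDS5A was gained on shared RAD21 at 1271 loci, and RAD21 on shared PDS5A at 920. The 2 proteins went in opposite directions at few loci, 148 with RAD21 only in Rescue and PDS5A only in KO cells and 134 the reverse. Of the joint gains 272 loci (1.81% of all loci) had no deposited KO peak of either protein.

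The joint gain with the highest lowest value lay at chr6:40296266-40296829. RAD21 had a −log10 p of 109.2 and 106.5 in Rescue and 7.0 and 40.5 in KO cells, and PDS5A 105.2 and 77.5 in Rescue with no KO peak. At chr5:137977255-137979217 RAD21 had 47.8 and 53.6 and PDS5A 87.7 and 114.1 in Rescue, and neither protein had a deposited KO peak. Both proteins were called there in treated wild-type cells, with no H3K27Ac or IgG peak. At chr1:16405347-16406044 RAD21 had 78.8 and 56.8 and PDS5A 60.4 and 33.9, again with no KO peak. RAD21 was called in untreated KO cells at both of these positions, as at 6 of the 10 strongest joint gains with no treated KO peak. All 4 Rescue libraries are high at each of these 3 positions. The strongest joint loss, at chr20:48806242-48809105, differed from them. RAD21 had 52.0 and 121.3 in KO and 256.0 and 13.7 in Rescue cells, and PDS5A 45.9 and 71.2 in KO and 248.3 and 4.58 in Rescue cells. All 5 of the strongest joint losses lay on an IgG peak, and 1 of the 10 strongest joint gains did. A deposited IgG peak of any condition lay under 37 of the 48 joint losses (77.1%, 63.5 to 86.7). It lay under 34.0% of the joint gains, near the 35.6% of all loci, and under 60.1% of the loci shared for both proteins. Median widths were 1897 bp at joint losses, 1224 bp at joint gains and 1650 bp at loci shared for both. The part of width in these shares was not tested.

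Peaks with no deposited peak in the other genotype were narrow and seldom lay on H3K27Ac, in either direction. An H3K27Ac peak of treated Rescue cells, which the choice of these peaks did not use, lay under 18.5% (16.6 to 20.5) of the 1539 RAD21 peaks of this kind. Such a peak lay under 50.6% (49.2 to 51.9) of the Rescue-only peaks with a KO peak over the limit and under 54.0% (52.4 to 55.6) of the shared peaks. The PDS5A shares were 9.44% (8.24 to 10.8), 41.2% and 50.5% (48.9 to 52.2). The few KO peaks with no deposited Rescue peak had low shares too, at 14.3% (5.70 to 31.5) of 28 RAD21 and 21.4% (7.57 to 47.6) of 14 PDS5A peaks, against 53.7% and 50.3% of the shared KO peaks. Their median widths were 524 and 522 bp, against 1076 and 1113 bp, and 3 and 1 of them lay on IgG. In the Rescue list median widths followed the order of the H3K27Ac shares, at 607, 1081 and 1240 bp for RAD21 and 781, 1189 and 1424 bp for PDS5A. With only the summit of each peak looked up, the H3K27Ac shares were 18.5%, 50.2% and 53.6% for RAD21 and 9.24%, 40.8% and 50.1% for PDS5A. The classes still came from overlaps of whole peaks, so width can still have a part in them. Among RAD21 peaks with no KO peak the share was 18.4%, 18.6% and 18.3% in the weakest, middle and strongest group of the list. Among PDS5A peaks with no KO peak it was 11.5% (9.69 to 13.6), 7.99% and 5.63% (3.5 to 8.96). The PDS5A share was also lower in stronger groups of the other classes. It was 44.3%, 41.1% and 35.2% over the limit and 65.8%, 59.7% and 44.8% among shared peaks. For RAD21 these classes had higher shares in stronger groups, at 45.5%, 53.3% and 56.6% over the limit and 41.15%, 52.3% and 56.7% among shared peaks.

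Background moved with H3K27Ac. A deposited IgG peak of any of the 6 IgG lists lay under 9.29% of the RAD21 peaks with no KO peak, 41.6% of those over the limit and 53.2% of the shared ones; for PDS5A the shares were 4.70%, 36.3% and 51.8%. With all peaks on IgG left out, the H3K27Ac shares were 14.0% (12.3 to 15.9), 34.1% and 29.2% (27.1 to 31.3) for RAD21, and 7.34% (6.25 to 8.59), 23.3% and 22.5% (20.6 to 24.6) for PDS5A. The positions with no KO peak thus stayed lower than the shared ones by 15.2 points for either antibody, against 35.5 and 41.1 points with IgG positions kept. The difference between all Rescue-only and shared peaks was 10.4 points for RAD21 and 17.5 for PDS5A, and without IgG positions 1.2 and 4.70.

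At equal length the positions missing from the other list had unlike H3K27Ac shares in the 2 genotypes, but the KO side rests on cutting the Rescue list. The 245 Rescue RAD21 peaks with no KO peak had a median width of 616 bp, and 18% (13.7 to 23.2) lay on H3K27Ac of Rescue cells and 8.98% on IgG. The 239 KO RAD21 peaks with no peak in the cut Rescue list had a median width of 1291 bp, and 48.5% (42.3 to 54.8) lay on H3K27Ac and 58.2% on IgG. For PDS5A 6.36% of 330 Rescue peaks and 47.1% of 306 KO peaks lay on H3K27Ac. Without IgG positions the shares were 13.0% (9.21 to 18.1) and 27% (19.3 to 36.4) for RAD21, whose intervals do not overlap, and 4.94% and 27.2% for PDS5A. The full Rescue list held a peak at 211 of the 239 KO RAD21 positions and at 292 of the 306 KO PDS5A positions, below the rank of the cut. Of the KO peaks that the full Rescue list lacks, 14.3% (5.70 to 31.5) of 28 RAD21 and 21.4% (7.57 to 47.6) of 14 PDS5A peaks lay on H3K27Ac. The RAD21 interval lay below that of the cut list. The PDS5A interval overlapped that of the cut list (41.5 to 52.6).

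**Figure D4:**
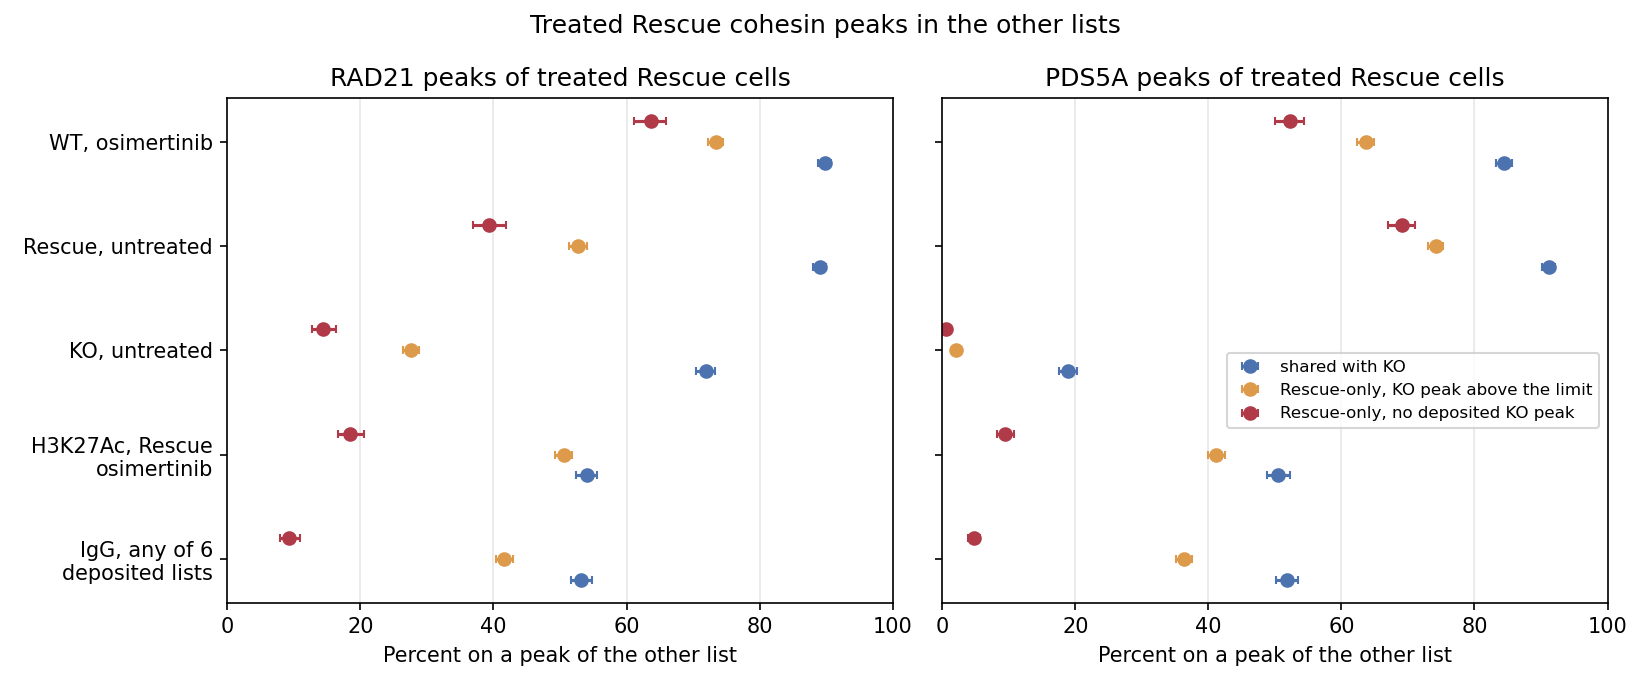
Share of treated Rescue RAD21 (left) and PDS5A (right) peaks on a peak of other lists, by their state in treated KO cells; bars are Wilson 95% intervals. Peaks with no deposited KO peak have the lowest share in each of the 5 lists, and shared peaks have the highest.

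Loci where PDS5A was gained without RAD21 stood apart from the other gains. H3K27Ac of Rescue cells lay under 17.8% (16.5 to 19.2) of the 3201 PDS5A-alone loci, 44.5% (42.7 to 46.4) of the 2777 RAD21-alone loci, 41.4% (39.7 to 43.1) of the joint gains and 40.2% of all loci. The PDS5A-alone and RAD21-alone loci were of like width, with medians of 878 and 920 bp. IgG lay under 15% and 30.7% of them. Without IgG positions H3K27Ac lay under 9.74% (8.68 to 10.9) of the PDS5A-alone and 33.4% (31.4 to 35.6) of the RAD21-alone loci. Among peaks the PDS5A-alone share was 14.4% (12.2 to 16.9) and the RAD21-alone share 48.9% (45.6 to 52.1) at equal length. In replicate 1 alone the shares were 13.8% and 29.0%, and in replicate 2 alone 15.3% and 36.7%. The same order was present where the protein was shared by both genotypes: H3K27Ac lay under 20.4% (16.9 to 24.3) of the 452 loci with PDS5A shared by both genotypes and no RAD21, and under 47.9% (42.8 to 53.1) of the 363 loci with RAD21 shared and no PDS5A. It was absent among the few loci of KO cells alone, where H3K27Ac lay under 42.2% (33.0 to 51.9) of 102 PDS5A-alone and 40.7% (32.1 to 49.9) of 113 RAD21-alone loci. Without IgG positions these shares were 20% (11.2 to 33.0) of 50 and 25% (16.4 to 36.1) of 72 loci, with overlapping intervals. Absence of a RAD21 peak at the limit is not absence of RAD21, since 69.2% of the PDS5A-alone loci held a deposited Rescue RAD21 peak. A PDS5A peak was deposited for Rescue cells at 87.9% of the RAD21-alone loci.

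**Figure D5:**
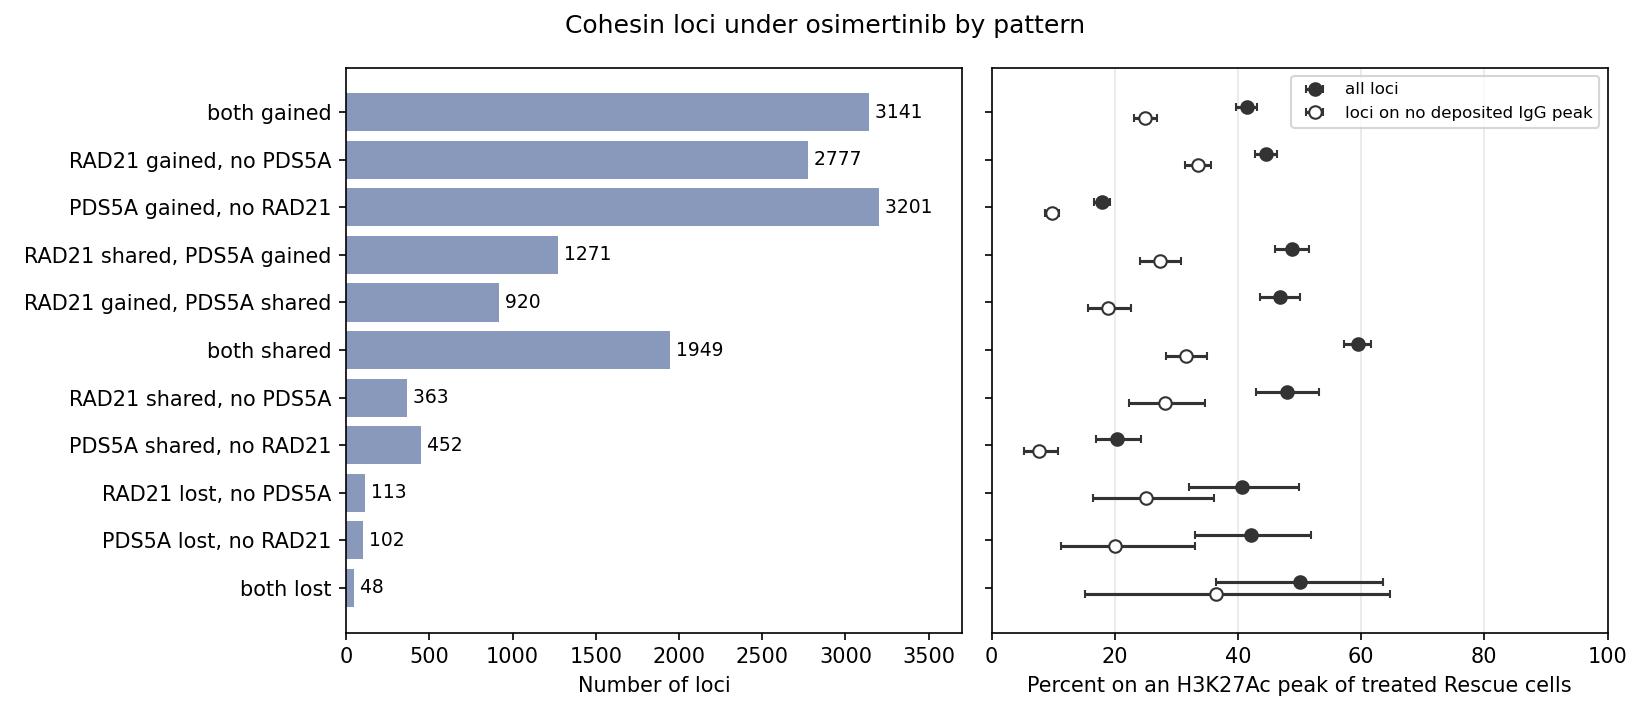
Number of loci by pattern of RAD21 and PDS5A (left) and the share of each on an H3K27Ac peak of treated Rescue cells (right), with and without loci on an IgG peak; bars are Wilson 95% intervals. PDS5A gained or shared without RAD21 has the lowest shares, 17.8% and 20.4%, and 9.74% and 7.61% without IgG positions. PDS5A lost without RAD21 stands at 42.2%, and at 20% (11.2 to 33.0) of 50 loci without IgG positions.

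Most positions gained in Rescue cells were also cohesin peaks of treated wild-type cells, as were most positions of any kind. These wild-type lists, of 16340 RAD21 and 12323 PDS5A peaks, were not used to choose the positions. Of the Rescue-only peaks 71.3% for RAD21 and 60.7% for PDS5A lay on a treated wild-type peak, and 95.2% and 93.0% on a deposited one. Among shared peaks the shares were 89.8% and 84.4%, and among KO-only peaks 76.5% and 65.4%. Over all 14999 loci they were 70.2% and 60.9%, but these include loci with no peak of the antibody and are not a like base. Without a deposited KO peak they were 63.6% and 52.3%, and in the strongest group of these 82.8% and 78.2%. The strongest group had like shares where a KO peak missed the limit, at 82.3% and 79.6%. Among its shared peaks the shares were 91.1% and 87.9%. Both proteins were called in treated wild-type cells at 54.0% (52.3 to 55.7) of the joint gains and 82.3% of the loci shared for both. Among joint gains with no KO peak of either protein the share was 46.7% (40.9 to 52.6). Over all loci, which are not a like base, it was 50.5% (49.7 to 51.3).

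Many gained positions were peaks of Rescue cells before treatment, at lower shares than the shared peaks. Of Rescue-only peaks 49.8% for RAD21 and 72.9% for PDS5A were called in untreated Rescue cells, and 24.7% and 1.68% in untreated KO cells. In untreated Rescue cells the shares over shared peaks were 89.0% and 91.1%, and over KO-only peaks 67.1% and 79.5%. Over all loci, which include loci with no peak of the antibody, they were 52.4% and 70.6%. In untreated KO cells the shares were 71.9% and 18.85% over shared peaks and 51.2% and 16.25% over KO-only peaks. Over all loci these were 32.8% and 5.93%. The untreated lists differ in length, with 8993 RAD21 and 13746 PDS5A peaks in Rescue cells and 5283 and 901 in KO cells, and the low PDS5A share in untreated KO cells stands beside a list of that length. Treated wild-type but not untreated Rescue cells had 31.3% of the Rescue-only RAD21 peaks and 12.8% of the PDS5A peaks. Among shared peaks these shares were 8.64% and 6.17%, and among KO-only RAD21 peaks 23.1%. Neither the treated wild-type list nor any untreated list held 1224 Rescue-only RAD21 peaks (17.4%) and 1104 PDS5A peaks (14.2%). Among shared peaks these shares were 1.23% and 1.92%, and among KO-only RAD21 peaks 6.97%. Of the joint gains 43.3% had both proteins called in untreated Rescue cells and 0.637% in untreated KO cells, against 87.8% and 21.4% of the loci shared for both and 42.7% and 4.45% of all loci.

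Summits of the 2 proteins lay close together at gained and shared positions alike. The median distance between overlapping RAD21 and PDS5A summits was 77 bp at joint gains (quartiles 25 and 216 bp), 49 bp at joint gains with no KO peak, and 42.5 bp (16 and 161 bp) at positions shared for both. Within 100 bp were 54.7% (53.0 to 56.4) of the joint gains and 66.9% (64.8 to 69.0) of the shared positions. Measured between the middles of the peaks the medians were 88 and 92.2 bp, so the order of the medians depended on the use of summits. The median distance to the nearest other shared peak was somewhat longer for gained than for shared peaks, with widely overlapping quartiles. For RAD21 it was 149.2 kb with no KO peak and 128.6 kb (quartiles 45.8 and 310.1 kb) with a KO peak over the limit. Shared RAD21 peaks had 115 kb (40.6 and 274.1 kb). For PDS5A the medians were 167.1, 129.4 (41.9 and 368.2) and 89.8 kb (27.3 and 255.9 kb) in the same order.

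Gains were spread over all 22 chromosomes. A joint gain lay in 490 of the 552 windows of 5 Mb that held a locus (88.8%), and RAD21 peaks were more numerous in Rescue cells in 536 windows and in KO cells in 2. The share of loci that were joint gains ran from 16.9% on chromosome 12 to 28.9% on chromosome 21 and was 28.5% (518 of 1815 loci, 26.5 to 30.7) on chromosome 1. Chromosome 21 had the highest ratios, with 87 and 13 RAD21 peaks and 81 and 8 PDS5A peaks in Rescue and KO cells. Its H3K27Ac lists moved the same way, with 114 and 39 peaks, a ratio of 2.92. Over deposited peaks the chromosome 21 ratio was 2.46 for RAD21 (248 and 101 peaks), 2.57 for PDS5A and 1.21 for H3K27Ac. The counts are small, and copy number was not analysed here. The window with the most joint gains was chromosome 1 from 155 to 160 Mb, with 34 among 85 loci. It held 67 RAD21 peaks in Rescue, 16 in KO and 64 in treated wild-type cells, and 71, 21 and 63 PDS5A peaks. The window on chromosome 11 from 65 to 70 Mb had 30 joint gains among 146 loci, and its share of all RAD21 peaks was lower in Rescue (0.884%) than in KO cells (1.12%). The deposited treated IgG lists held 5 peaks there in Rescue and 56 in KO cells.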

How the data were processed

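CUT&RUN of RAD21 and PDS5A in osimertinib-treated Rescue and KO PC9 cells was analysed from 1 deposited peak list per antibody and genotype, each joining 2 libraries. Lists of H3K27Ac, IgG, treated wild-type and untreated cells were used beside them. The submitters' processing notes list MACS2 2.2.7.1, Bowtie2 2.4.2, SAMtools 1.16 and the build GRCh37, with no role or order. The peak threshold, control and IDR version are not given in the sources used here. The values deposited by the authors were the −log10 p of each replicate and the −log10 of the global IDR. The first is a value of the authors' own peak calls, and the second rates the agreement of the replicates. They were used here to choose and rank peaks within a list. Each list holds only peaks matched between the replicates, so the settings on 1 replicate still need a match. Whether the replicates were separate cultures is not stated.

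Peaks on chromosomes 1 to 22 with a −log10 global IDR of 1.301 or more (IDR of 0.05) were compared by an overlap of 1 bp, with pandas 2.3.3 and numpy 2.4.6 under Python 3.11.15, and matplotlib 3.10.9 for the figures. Intervals are Wilson 95% intervals. The overlap code was tested on simulated data, where 3800 of 3800 calls equalled a direct search. Positions named are the 5 Rescue-only and 5 KO-only peaks per antibody with the highest lower-replicate value, 5 of each with no deposited peak in the other genotype, the 10 highest joint gains, the 10 highest with no KO peak, 5 joint losses and 3 shared peaks per antibody. A part of these is printed. The windows named are among the 5 with most joint gains. Alternatives were every deposited peak, an IDR of 0.01, no peaks on IgG, an overlap of 50%, equal length, a −log10 p of 10 in both replicates and each replicate alone. The summit-based H3K27Ac shares, the settings applied to peaks with no KO peak and to gains of 1 antibody alone, and the cut of the deposited lists were added after seeing the data. The positions and settings were chosen with earlier results of these data known. No GRCh37 annotation or genome was used, so no gene or sequence is given.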

Additional observations from a re-analysis of the deposited data

How the results depend on the processing

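No paired analysis was possible because no comparison rests on a test and each deposited list joins both replicates. The Rescue list was the longer one for both antibodies under all settings run that do not fix the length. With every deposited peak used, the ratio of peak counts was 1.49 for RAD21 and 1.48 for PDS5A, with an IDR of 0.01 it was 3.17 and 4.18, without peaks on IgG 3.17 and 3.77, and with a −log10 p of 10 in both replicates 2.13 and 1.94. Single replicates gave 1.34 to 2.69 and 1.10 to 2.86. In the order every deposited peak, IDR of 0.01, no IgG, equal length and −log10 p of 10, the Rescue-only share was 40.4%, 71.8%, 72.1%, 37.6% and 59.4% for RAD21 (42.0% to 64.3% on single replicates) and 40.1%, 79.5%, 76.9%, 41.2% and 58.5% for PDS5A (35.0% to 66.4%). The KO-only share was 9.47% with every deposited peak, 37.3% at equal length and 13.1% at a −log10 p of 10 for RAD21 (3.67% to 21.7% on single replicates), and 8.73%, 40.9% and 18.9% for PDS5A, with 14.1% at an IDR of 0.01 (2.93% to 27.5%).

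Of Rescue-only RAD21 peaks, 36.9%, 42.7%, 16.1% and 38.0% were joint gains with every deposited peak, an IDR of 0.01, equal length and a −log10 p of 10 (22.1% to 58.7% on single replicates). Of Rescue-only PDS5A peaks these were 35.8%, 38.6%, 15.7% and 37.9%, and 37.4% without IgG (27.1% to 49.7%). Joint gains numbered 1997 at an IDR of 0.01, 2093 without IgG, 259 at equal length and 1228 to 7376 on single replicates. The H3K27Ac difference, shared minus Rescue-only, was 21.0, 3.99, 1.2, 5.72 and 13.5 points for RAD21 in the 5 settings above (10.6 to 20.6 on single replicates), and 27.8, 13.1, 4.70 and 24.8 points for PDS5A without the equal-length setting, which gave 15.9 (19.8 to 29.1). The share of Rescue-only peaks in treated wild-type cells was 68.3%, 68.6%, 69.3% and 82.4% for RAD21 in the first 4 settings (63.9% to 81.8%). For PDS5A it was 63.0% with every deposited peak, 49.9% at an IDR of 0.01, 77.7% at equal length and 64.7% at a −log10 p of 10 (58.5% to 70.9%). The share in untreated Rescue cells was 43.4% at an IDR of 0.01, 76.8% at equal length and 57.1% at a −log10 p of 10 for RAD21 (49.7% to 66.1%), and 67.8%, 88.5% and 75%, with 75.2% without IgG, for PDS5A (71.9% to 74.5%). The IgG share was 9.81%, 44.5%, 43.1% and 29.8% for RAD21 with every deposited peak, an IDR of 0.01, equal length and a −log10 p of 10 (23.6% to 25.5%), and 7.64%, 33.6%, 26.2% and 21.9% for PDS5A (17.4% to 18.8%). Windows of 1 Mb held a joint gain in 62.9% of cases. An overlap of 50% of the shorter peak kept every share within its interval. The cause of these movements was not tested. Depth is unknown, so a position without a deposited KO peak is not shown to lack cohesin. Genes near gained peaks, and their promoter setting, were not analysed here.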
